A study of Homo sapiens with 4 samples.

Results

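The mRNA decay and deadenylation genes are the machinery that shortens the poly(A) tail of an mRNA, removes its cap, degrades the remaining RNA from either end and clears aberrant transcripts. Members were chosen by symbol alone: the CCR4-NOT subunits (CNOT), the other deadenylases PAN2, PAN3 and PARN, the cytoplasmic poly(A)-binding proteins (PABPC), the decapping factors (DCP, DCPS, EDC and PATL1), the LSM proteins apart from LSM11, the 5′ exonucleases (XRN), the RNA exosome and its partners (EXOSC, DIS3, SKIV2L and TTC37), the nonsense-mediated decay (NMD) factors (UPF and SMG) and the endonuclease ZC3H12A. Of 14911 gene names, 64 met this rule. Averaged across the libraries, 50 counts or more were reached by 32 members and by 5320 genes in all, and the values that follow are for these genes unless stated otherwise.

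Cytoplasmic mRNA turnover usually begins with deadenylation by the PAN2-PAN3 and CCR4-NOT complexes. Decapping by DCP2 and digestion by XRN1 follow at the 5′ end, while the exosome and the SKI complex work from the 3′ end. N6-methyladenosine (m6A), the methyl mark that ALKBH5 removes from RNA, is itself tied to this pathway, because the m6A reader YTHDF2 recruits CCR4-NOT to methylated mRNAs. The data below concern the mRNAs that encode the decay machinery, not its activity.

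HEK293T cells, a human embryonic kidney line, carried a lentiviral control shRNA (shCTL) or an shRNA against ALKBH5 (shA5), and all of them had received X-rays, at 10 Gy according to the methods of the study. The study used 2 ALKBH5 shRNAs, and its methods give several harvest times after irradiation. Which shRNA and which time apply to these libraries, and the number of cultures, are not given in the sources used here. For each population, m6A-seq gave an input library of fragmented RNA and a library immunoprecipitated with an m6A antibody (m6A-IP), so there was 1 library per group, no replicate and no p-value. No unirradiated library was analysed here, and the effect of irradiation itself was not part of any comparison.

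Of the shCTL libraries, the input held 2237819 counts and the m6A-IP 3944402, and of the shA5 libraries, the input held 1311390 and the m6A-IP 3148119. All counts below are given in that order. The members took 0.637 to 0.873% of them. ALKBH5 had 486, 1432, 145 and 589 counts, and its input level changed by -0.97 on the log2 scale in shA5 (95% counting interval -1.25 to -0.70). Of the HEK293T markers, NEFL had 83 to 555 counts and KRT8 27 to 117, whereas VIM had 2 to 8, NEFM 2 to 8, KRT18 4 to 30 and PAX2 at most 1. The leukocyte, hepatocyte and erythroid markers PTPRC, ALB and HBB had 0 counts in all libraries.

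Counts scaled to a common library total (CPM) were compared on the log2 scale after adding 0.5 CPM. m6A enrichment is the log2 ratio of m6A-IP to input within a population, and a gene was called higher or lower in the IP at 1.5-fold. Bracketed ranges are exact 95% intervals that cover counting error only. They cannot show how replicate cultures would vary. An enrichment of 0 means that the gene took the same share of the IP library as of its input, not that its RNA lacks m6A.

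The mRNAs of the decay machinery were more often depleted from the m6A-IP than enriched in it. In shCTL 17 of 32 members (53.1%) were lower in the IP, against 30.3% of all genes, and 8 (25%) were higher, against 22.5%. In shA5 16 members (50%) were lower, against 31.7% of all genes, and 6 (18.8%) were higher, against 24.3%. CNOT6, UPF1 and UPF2 reached 50 mean counts only through their IP libraries, where they were high. With 50 mean counts asked of the inputs alone, a choice made after seeing the data, 29 members remained, of which 5 were higher and 17 lower in the IP in shCTL, against 19.1 and 35.8% of all genes. The median enrichment of the members was -0.64 in shCTL and -0.62 in shA5, while the medians over all genes were -0.11 and -0.10. The middle of the members ranged widely, with quartiles of -0.97 and 0.21 in shCTL, and all genes had quartiles of -0.73 and 0.52.

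The depleted mRNAs included all decapping factors with enough counts and both poly(A)-binding proteins, whereas the NMD factors were 3 above and 3 below 0 in shCTL. Median enrichment in shCTL was -0.93 for the 4 decapping factors, -1.31 for PABPC1 and PABPC4, -0.64 for the 3 CCR4-NOT subunits and -0.63 for the 6 LSM proteins. It was 0.29 for the 6 NMD factors and -0.07 for the 4 of them with 50 mean counts in the inputs. The 8 genes of the exosome and 3′ decay had a median of -0.77 and fell into 2 sets with no member between -0.67 and 1.08. These groups hold few genes, and their medians are descriptions.

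**Figure D1:**
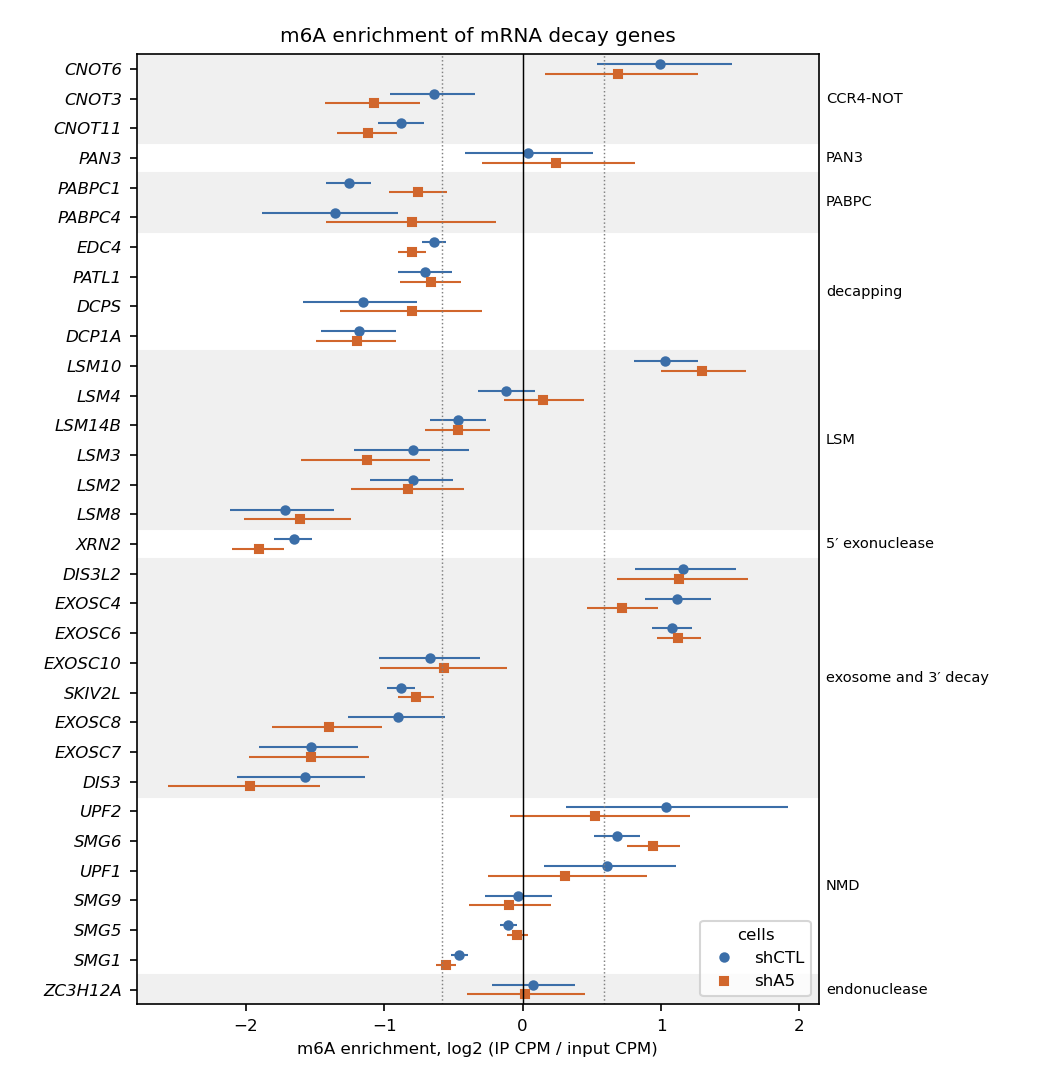
m6A enrichment (log2 of m6A-IP over input CPM) of the 32 decay genes with enough counts, ordered by role and by enrichment in shCTL. Circles are shCTL and squares shA5, horizontal lines are 95% counting intervals with 1 library per group, and dotted lines mark 1.5-fold; decapping genes lie left of 0 in both populations, while DIS3L2, EXOSC4, EXOSC6, LSM10, CNOT6 and SMG6 lie right of the upper dotted line in both.

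The sequence GGACT is the commonest form of the site at which the METTL3-METTL14 complex methylates adenosine, and m6A is known to be dense around stop codons. The transcript with the most counts of each gene (the main transcript) was therefore searched for GGACT on its own strand, in the Gencode v44 sequences on hg38. The site nearest to the stop codon with its flanks in 1 exon is printed for 5 members that were high in the IP and for the 4 lowest members, to show what such sites look like and where they lie. Capitals mark GGACT, with 8 bases on each side, and distances run from the last base of the stop codon to the A of the motif.

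High in the IP, EXOSC6 had its nearest site 130 bases into the 3′ UTR (chr16:70250942-70250962, minus strand) and UPF2 464 bases into it (chr10:11920824-11920844, minus strand). UPF1 and SMG6 had theirs in the coding sequence, at -64 (chr19:18866089-18866109, plus strand) and -151 (chr17:2065083-2065103, minus strand), and DIS3L2 at -880 (chr2:232136691-232136711, plus strand).
EXOSC6: ctgtggttGGACTgacctgac
UPF2: gggctccaGGACTacagtaga
UPF1: ctctcacaGGACTccacgtac
SMG6: aaggctaaGGACTtcatgccc
DIS3L2: tggaaggaGGACTgcaatttt

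Low in the IP, DIS3, EXOSC7 and XRN2 had their nearest such site in the coding sequence, at -1041 (chr13:72768822-72768842, minus strand), -784 (chr3:44989164-44989184, plus strand) and -1218 (chr20:21346510-21346530, plus strand). A further GGACT of XRN2, at -404, lies at an exon junction and is not printed. The main transcript of LSM8 held its only GGACT in the 5′ UTR, at -511 (chr7:118185392-118185412, plus strand).
DIS3: gtctccgtGGACTgaataaac
EXOSC7: ggctgtgaGGACTaccgatgt
XRN2: acgttgaaGGACTttgctggg
LSM8: agtagctgGGACTataggtca

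Sites near the stop codon were then counted over the members and over all genes. At least 1 GGACT within 500 bases of the stop codon was present in 15 of 32 members (46.9%), against 64.7% of the 5296 genes whose main transcript has an annotated coding sequence. It was present in 6 of the 8 members higher in the IP in shCTL, in 5 of the 7 members called in neither direction and in 4 of the 17 lower members (23.5%). Over all genes the same shares were 69.5, 65.9 and 59.2%. Of the 5 higher members with 50 mean counts in the inputs, 3 had such a site. EXOSC4 is among those 3, and 89.9% of its 50-base stretches also occur in transcripts of other genes. The window was chosen after the sites had been seen. Within 250 bases, the members had a site in 5 of 8, 2 of 7 and 2 of 17 cases, against 48.8, 47 and 39.7% of all genes. Within 1000 bases, they had a site in 7 of 8 (87.5%), 6 of 7 and 9 of 17 (52.9%), against 87.2, 82.9 and 78.4%, so at this width the higher members were at the share of all genes. EXOSC6 had the most sites in the 500-base window, 4, whereas LSM10 had no GGACT in its main transcript and DIS3L2 had none within 500 bases, though both were high in the IP. The main transcript of DIS3L2 took 50.9% of its counts. Sites near the stop codon of its other well counted transcript were not looked up.

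Counted over whole transcripts, GGACT occurred in 27 of 32 main transcripts of members (84.4%) and in 93.3% of 5307 main transcripts of all genes. GGACT density was 0.973 sites per kb for the members at the median and 0.961 for all genes. Across the 32 members the Spearman correlation of GGACT density with enrichment in shCTL was 0.42, and across all genes it was 0.17. For GC content the coefficients were 0.35 and 0.36. CNOT6, UPF1 and UPF2 had enough counts only through their IP libraries, where they were high. Their GGACT densities, 1.29, 1.32 and 0.987 sites per kb, were above the median of the members. No coefficient was computed with enough counts asked of the inputs alone. The difference between 0.42 and 0.17 is therefore not read as a property of the members. Genes are not independent replicates, the points share the same libraries, and motif density and GC content are both properties of base composition. Member transcripts had more exons than those of all genes (medians 14.5 and 8.83) and a longer coding sequence (1855 and 1391 bases), while their median 3′ UTR was 1252 bases against 1420. The Spearman correlation of enrichment with exon number was -0.085 over members and -0.26 over all genes.

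**Figure D2:**
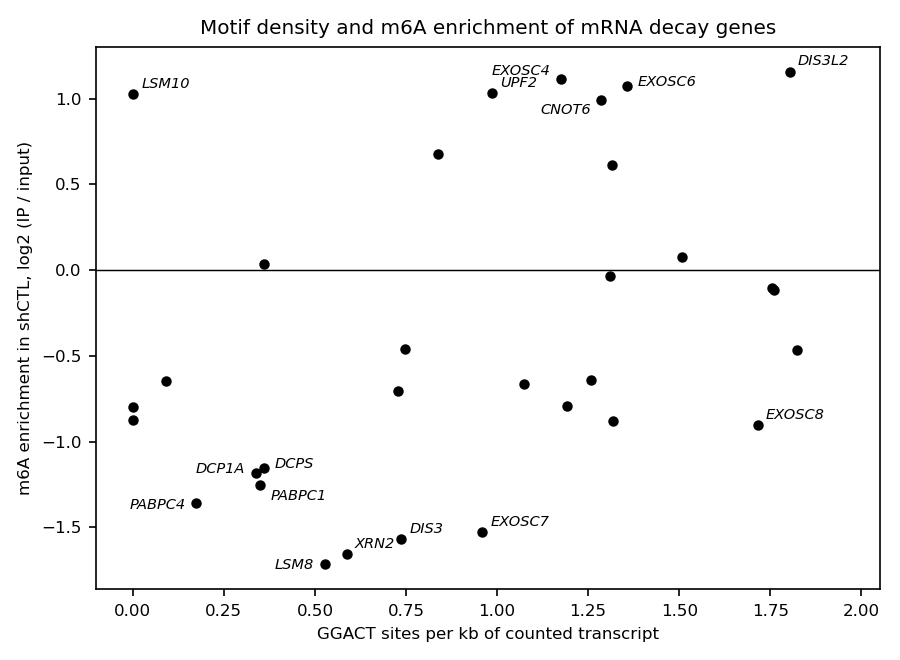
m6A enrichment in shCTL (log2 of m6A-IP over input CPM) against GGACT sites per kb of counted transcript for the 32 decay genes with enough counts, 1 point per gene. The 5 members below -1.3 all have fewer than 1 site per kb, where the median of all genes is 0.961, and LSM10, at 1.03, has none. EXOSC8, SKIV2L, EDC4, LSM3 and EXOSC10 were also lower in the IP and have 1.07 to 1.72 sites per kb. The value -1.3 was chosen after the points were seen.

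Deadenylation was represented by few genes. CNOT6, a catalytic deadenylase subunit of CCR4-NOT, had 47 counts in the shCTL input and 167 in its IP, and 36 and 140 in shA5. Its enrichment was 0.99 (0.54 to 1.51) in shCTL and 0.69 (0.16 to 1.27) in shA5, with a mean of 41.5 counts over the inputs. CNOT11, a subunit of the module at the amino-terminal end of the CNOT1 scaffold, had 612, 587, 333 and 367 counts and an enrichment of -0.88 (-1.04 to -0.71) in shCTL and -1.12 (-1.34 to -0.90) in shA5. CNOT3, a regulatory subunit, lay on the same side, at -0.64 and -1.08. PAN3, the subunit that brings the PAN2 deadenylase to mRNA, was close to 0, with 63, 114, 39 and 111 counts and enrichments of 0.04 and 0.24.

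The CCR4-NOT scaffold and the other nucleases of deadenylation were hardly counted. CNOT1 had 12, 20, 9 and 10 counts, CNOT7 44, 24, 22 and 10, CNOT8 21, 16, 10 and 10, CNOT6L 2, 6, 1 and 7, and PARN 6, 2, 9 and 0. Counts are per transcript, and the MANE Select transcripts (the reference isoform agreed by Ensembl and RefSeq) of CNOT1, CNOT8 and PARN are not listed among the transcripts used here. All 10 members without a listed MANE Select transcript were under 50 mean counts, and members under that level had more annotated coding transcripts per gene (median 7) than those above it (median 4). The rule for reads shared between isoforms is not stated, so a low count of a member is not read as low expression.

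Both poly(A)-binding proteins were depleted from the IP, PABPC1 less so in shA5. PABPC1, which coats the poly(A) tail, had 711 counts in the shCTL input and 524 in its IP, and 321 and 456 in shA5. Its input level was 318 CPM in shCTL and 245 in shA5, and its IP level 133 and 145 CPM. Enrichment was -1.26 (-1.42 to -1.09) in shCTL and -0.75 (-0.97 to -0.55) in shA5, and the intervals did not overlap. The change was 0.50 (0.23 to 0.77), which is under 1.5-fold. Most of it was in the input, which changed by -0.38 (-0.57 to -0.18), while the IP changed by 0.12 (-0.06 to 0.31). Of the 50-base stretches of PABPC1 transcripts, 15.2% also occur in transcripts of other genes, and the part of this sharing in the change was not tested.

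PABPC4, its paralog, had 89, 60, 41 and 56 counts, an enrichment of -1.36 in shCTL and -0.80 in shA5, and a change of 0.56 (-0.22 to 1.37), whose interval includes 0. The enrichments of PABPC1 and PABPC4 differed by 0.10 (-0.39 to 0.65) in shCTL and 0.04 (-0.60 to 0.70) in shA5. The counted isoforms of PABPC4 did not give the same value. ENST00000372856 had 49 and 18 counts in the shCTL libraries and an enrichment of -2.15 (-3.13 to -1.46), while ENST00000372858 had 30 and 35 counts and an enrichment of -0.57 (-1.34 to 0.16). The testis-enriched PABPC3 had at most 3 counts in any library.

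Each decapping gene with enough counts was depleted from the IP in both populations. DCP1A, the activator of the decapping enzyme DCP2, had 261, 202, 198 and 206 counts and the lowest enrichment of the group, -1.18 (-1.46 to -0.92) in shCTL and -1.20 (-1.49 to -0.92) in shA5. EDC4, the scaffold that joins DCP1A to DCP2, had 2177, 2462, 1379 and 1902 counts and the highest in shCTL, -0.64 (-0.72 to -0.56), with -0.80 (-0.90 to -0.70) in shA5, where PATL1 was the highest at -0.66. Of the 50-base stretches of EDC4, 21.5% also occur in transcripts of other genes, and exons of another gene on the same strand cover 26.2% of it. DCPS, the scavenger enzyme that hydrolyses the cap left after 3′ decay, and PATL1, which links deadenylation to decapping, lay between them in shCTL, at -1.15 and -0.70. DCP1B, the paralog of DCP1A, was under 50 mean counts with 55, 24, 31 and 31, and its enrichment was lower than that of DCP1A by 0.75 (0.05 to 1.63) in shCTL, but in shA5 the difference was 0.02 (-0.77 to 0.88). DCP2 itself had 8, 17, 9 and 9 counts, too few to place it among them.

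The LSM genes spread over most of the range of the members. LSM10, a protein of the U7 particle that processes replication-dependent histone mRNAs, was the highest of them, with 200, 721, 104 and 616 counts and enrichments of 1.03 (0.80 to 1.27) in shCTL and 1.30 in shA5. LSM8, which forms the nuclear LSM2-8 ring on U6 RNA, was the lowest of all 32 members in shCTL, with 174, 92, 131 and 102 counts and enrichments of -1.72 (-2.12 to -1.36) and -1.61 (-2.01 to -1.24). Its 3 best counted transcripts were all depleted in shCTL, at -2.33, -1.43 and -1.80. LSM2 and LSM3, which belong to both the cytoplasmic and the nuclear ring, were at -0.80 and -0.79 in shCTL, and LSM4, of the same rings, was at -0.12 (-0.32 to 0.09). LSM14B, an RNA-granule protein related to LSM14A, had 361, 460, 236 and 409 counts and the same enrichment in both populations, -0.47.

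Digestion from the 5′ end was represented by XRN2, the nuclear exonuclease that degrades RNA downstream of poly(A) sites. XRN2 had 1180 counts in the shCTL input and 659 in its IP, and 599 and 383 in shA5. In CPM these were 527, 167, 457 and 122, so the IP level was 0.317 times the input level in shCTL and 0.267 times in shA5. Enrichment was -1.66 (-1.80 to -1.52) in shCTL and -1.90 (-2.10 to -1.72) in shA5. XRN1, the cytoplasmic enzyme, had 37, 8, 16 and 11 counts and was also depleted. The difference in enrichment, XRN1 minus XRN2, was -1.10 (-2.69 to -0.23) in shCTL and 0.24 (-1.16 to 1.32) in shA5.

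Within the exosome, subunits of the same ring were on opposite sides of 0. EXOSC6, a ring subunit encoded by a gene with 1 exon, had 502, 1867, 384 and 2012 counts and enrichments of 1.08 (0.93 to 1.22) and 1.13 (0.97 to 1.29). DIS3L2, an exosome-independent 3′ exonuclease that prefers uridylated RNA, had 81, 321, 46 and 244 counts and the highest enrichment of the members in shCTL, 1.16 (0.81 to 1.54), with 1.13 (0.68 to 1.63) in shA5. Its 2 main transcripts each were enriched in shCTL, at 1.06 and 1.29. EXOSC4, another ring subunit, was at 1.12 in shCTL and 0.72 in shA5, with 186, 713, 159 and 629 counts, but 89.9% of its 50-base stretches also occur in transcripts of other genes, chiefly a read-through gene on the same strand, so its counts cannot be given to EXOSC4 with certainty.

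The depleted exosome genes were DIS3, EXOSC7, EXOSC8 and EXOSC10, with the SKI helicase SKIV2L. DIS3, the catalytic subunit of the nuclear exosome, had 110, 64, 77 and 46 counts and enrichments of -1.57 (-2.07 to -1.14) and -1.97 (-2.57 to -1.46). EXOSC7, a ring subunit, had 177, 107, 102 and 84 counts and an enrichment of -1.53 in both populations. EXOSC8, also of the ring, was at -0.90 and -1.40, and EXOSC10, the nuclear catalytic subunit that trims rRNA precursors, at -0.67 and -0.57. SKIV2L, the helicase that feeds mRNA into the cytoplasmic exosome, had 1570, 1505, 834 and 1175 counts and was at -0.88 (-0.98 to -0.78) and -0.77 (-0.90 to -0.64). DIS3L, the cytoplasmic paralog of DIS3, had 3 to 6 counts per library.

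Among the NMD factors, the RNA helicase UPF1 and its partner UPF2 were on the enriched side in shCTL, together with the endonuclease SMG6. SMG6 cuts the target mRNA near the premature stop codon. It had 401, 1133, 273 and 1259 counts and enrichments of 0.68 (0.52 to 0.85) and 0.94 (0.75 to 1.14). UPF1 had 52, 141, 36 and 107 counts and was at 0.61 (0.15 to 1.11) and 0.30 (-0.25 to 0.90). UPF2 had 18, 67, 27 and 94 counts, the fewest of the 32 members and a mean of 22.5 over the inputs, and was at 1.03 (0.31 to 1.92) and 0.53 (-0.09 to 1.21). Both were past 1.5-fold in shCTL and not in shA5, but the changes, -0.31 (-1.06 to 0.45) for UPF1 and -0.51 (-1.61 to 0.50) for UPF2, had intervals that include 0.

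The kinase SMG1, which phosphorylates UPF1, and SMG5, which recruits decay enzymes to phosphorylated UPF1, had the most counts of the members after summing transcripts. SMG1 had 3803, 4876, 2457 and 4017 and SMG5 3198, 5249, 2069 and 4840. SMG1 was the lowest NMD factor, at -0.46 (-0.52 to -0.40) and -0.55 (-0.63 to -0.48), and SMG5 was near 0, at -0.10 and -0.04. SMG9, a regulator of SMG1, had 224, 386, 138 and 310 counts and was at -0.03 (-0.27 to 0.21) and -0.10 (-0.39 to 0.20). Of the SMG1 stretches, 18.1% also occur in transcripts of other genes. The UPF3 paralogs were under 50 mean counts, with 22, 37, 10 and 25 for UPF3A and 5, 9, 1 and 9 for UPF3B. ZC3H12A, an endonuclease that cleaves stem-loops in inflammatory mRNAs, had 143, 266, 67 and 163 counts and was near 0, at 0.08 and 0.02.

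Expressed per length, input levels of the members in shCTL ran from 1.54 CPM per kb for UPF2 to 314 for SMG5. After SMG5 came EDC4 at 204, SKIV2L at 185, XRN2 at 155 and PABPC1 at 111. In the shA5 input SMG5 was again the highest, at 346 CPM per kb, and UPF2 the lowest, at 3.97. The same rule on transcripts limits these levels.

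**Figure D3:**
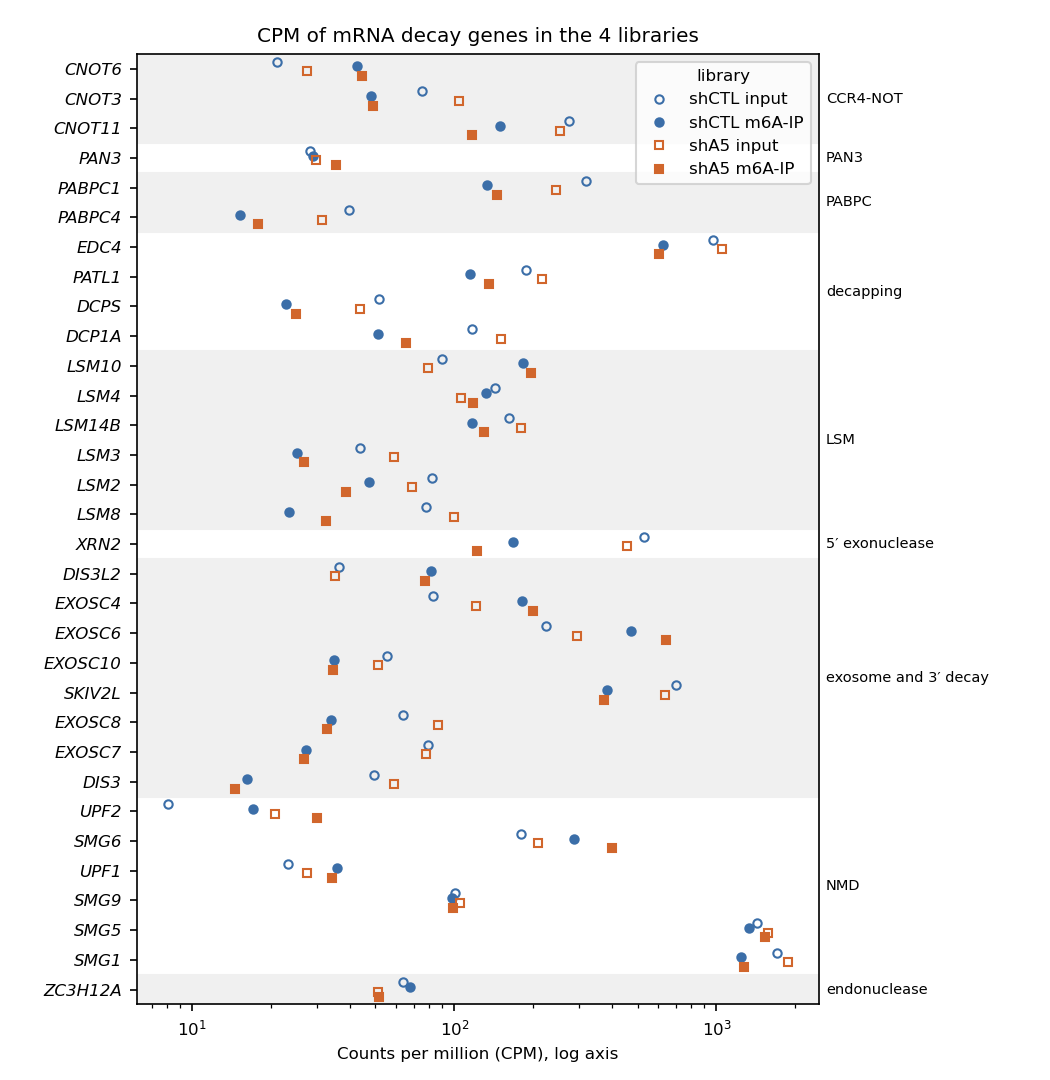
CPM of the 32 decay genes with enough counts in each of the 4 libraries, on a log axis, in the order of the enrichment plot. Open symbols are inputs and filled symbols m6A-IPs, circles shCTL and squares shA5; the filled symbols lie left of the open ones for XRN2, DIS3 and LSM8 and right of them for EXOSC6, LSM10 and DIS3L2.

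The pattern of enrichment across the members was similar in the populations. Across the 32 members the Pearson correlation of enrichment in shCTL and in shA5 was 0.95 and the Spearman correlation 0.93, and over all genes the Pearson correlation was 0.92. These values describe genes measured in 4 libraries. The enrichment was above 0 in both populations for 10 members and below 0 in both for 21, and LSM4 had opposite signs (-0.12 and 0.15). The same signs were not counted over all genes.

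**Figure D4:**
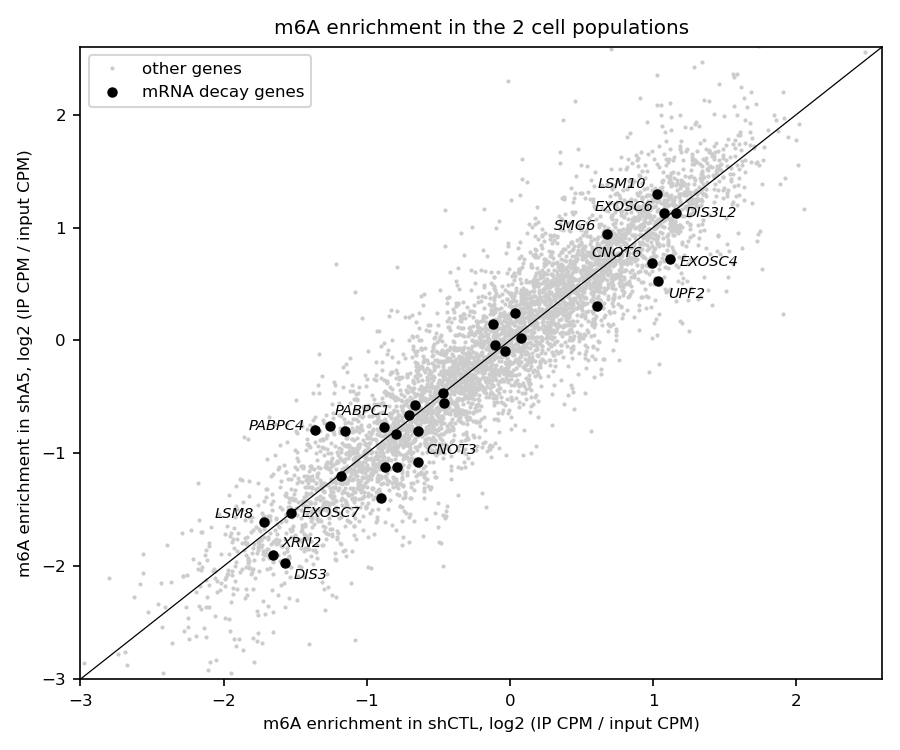
m6A enrichment in shA5 against m6A enrichment in shCTL (log2 of m6A-IP over input CPM). Grey points are other genes with enough counts, black points the 32 decay genes and the line marks equal values; PABPC1 and PABPC4 lie above the line, and EXOSC4 and UPF2 below it.

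Few of the decay mRNAs differed in m6A enrichment, taken relative to the library totals, between shA5 and shCTL beyond counting error. Each library was scaled to its own total, so a rise of m6A common to all RNA would not appear in these changes. The study reports a higher abundance and coverage of m6A peaks after ALKBH5 knockdown, which whole-gene counts do not measure. With a threshold of 1.5-fold, 0 of 32 members were higher in shA5 and 0 were lower, against 5.38 and 5.09% of all genes. The interval of the change lay above 0 for PABPC1 and SMG6, against 8.18% of all genes, and below 0 for EDC4, EXOSC4 and XRN2, against 8.06%. SMG6 changed by 0.26 (0.01 to 0.52), XRN2 by -0.25 (-0.49 to -0.02), EDC4 by -0.16 (-0.29 to -0.03) and EXOSC4 by -0.40 (-0.75 to -0.05). The changes of EXOSC8, -0.49 (-1.03 to 0.04), and CNOT3, -0.43 (-0.90 to 0.03), were of like size with intervals that include 0. With only its best counted transcript, which took 54.1% of its counts, CNOT3 changed by 0.18. The share of members whose interval excluded 0 (6.25% above and 9.38% below) was near that of all genes. The median change was -0.02 for the members and 0.00 for all genes. The change was above 0 for 14 members and below it for 18, while 50.45% of all genes were above 0.

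The changes of SMG6 and XRN2 had opposite signs, and in each the IP moved further than the input, in the same direction. For SMG6 the IP was higher by 0.48 (0.36 to 0.59) and the input by 0.22 (-0.01 to 0.44). For XRN2 the IP changed by -0.46 (-0.64 to -0.27) and the input by -0.21 (-0.35 to -0.06). EXOSC6 was higher in the IP by 0.43 (0.34 to 0.52) and in the input by 0.38 (0.19 to 0.58), and its enrichment changed by 0.05 (-0.17 to 0.27). Exons of another gene on the opposite strand cover 29.8% of the main SMG6 transcript, and the strand rule of the counting is not stated.

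In the input RNA, intervals that excluded 0 lay above it for more members than below it. At 1.5-fold, 1 of 32 members was higher, UPF2, against 3.44% of all genes, and 0 were lower, against 6.43%. With 50 mean counts asked of the inputs alone, 0 of 29 members were higher, against 2.71% of all genes. UPF2, with a mean of 22.5 there, is not among the 29. The UPF2 input rose from 18 to 27 counts, or from 8.04 to 20.6 CPM, a change of 1.30 (0.44 to 2.30), and its IP rose from 17.0 to 29.9 CPM. The interval lay above 0 for 10 members (31.2%), against 12.9% of all genes. They were CNOT3, DCP1A, EDC4, EXOSC4, EXOSC6, EXOSC8, LSM8, SMG1, SMG5 and UPF2. The input of CNOT3 changed by 0.46 (0.12 to 0.79) over all its transcripts and by 0.0054 in the best counted of them. EXOSC4, EDC4 and SMG1 share 89.9, 21.5 and 18.1% of their stretches with other genes, and the part of this sharing in the change was not tested. The interval lay below 0 for 4 members (12.5%), LSM4, PABPC1, SKIV2L and XRN2, against 15.6%. Members with many counts have narrow intervals, and so small changes pass: SMG1 and SMG5 each changed by 0.14 and EDC4 by 0.11. The median change was 0.13 for the members and -0.02 for all genes, with 19 of 32 members above 0 against 47.5% of all genes. In bulk RNA, fewer cells with a transcript and less of it per cell cannot be told apart. Enrichment change and input change share the input libraries, so a high input value lowers the former by construction.

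**Figure D5:**
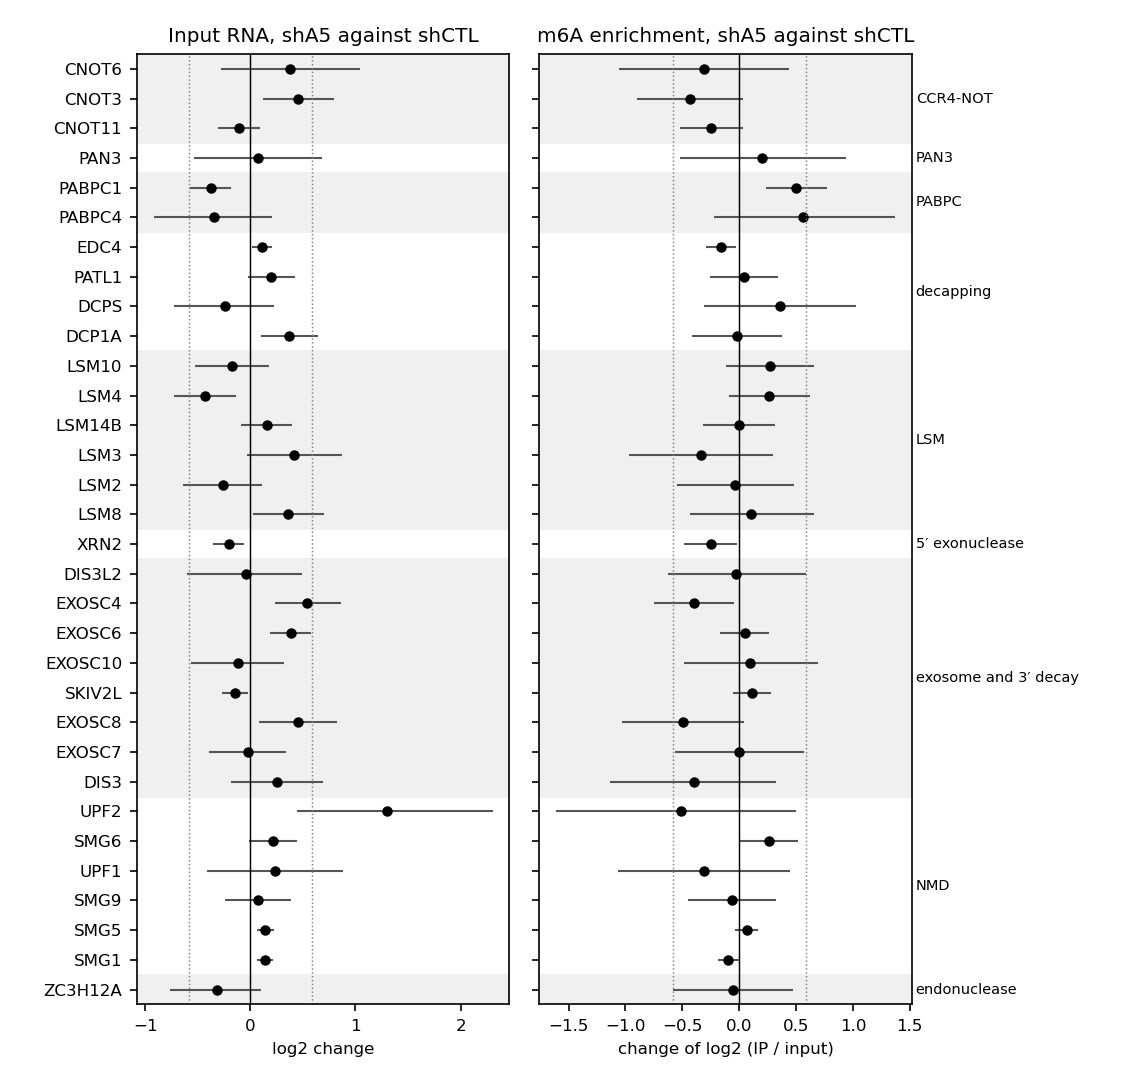
Change of input RNA (left) and of m6A enrichment (right), shA5 against shCTL, on the log2 scale, for the 32 decay genes with enough counts. Points are estimates, lines 95% counting intervals and dotted lines 1.5-fold; UPF2 lies right of the upper dotted line in the input plot, and no point lies past a dotted line in the enrichment plot.

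Among the 32 members under 50 mean counts, LSM14A and LSM7 had changes whose intervals excluded 0, and both were named after their values were seen. That is 1 of 32 above 0 and 1 below (3.12% each), against 2.86 and 2.99% of the 7660 genes in the same range of mean counts, so the share was near that of all genes. LSM14A, an RNA-granule protein of the decapping machinery, had 42, 45, 20 and 69 counts, and its enrichment went from -0.69 to 0.51, a change of 1.20 (0.23 to 2.27). LSM7, of the LSM rings, had 29, 47, 30 and 22 counts and went from -0.12 to -1.64, a change of -1.53 (-2.72 to -0.47), and its input changed by 0.80 (0.03 to 1.61). The difference in enrichment, LSM14A minus LSM14B, was -0.23 (-0.92 to 0.43) in shCTL and 0.98 (0.21 to 1.83) in shA5.

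Further decay genes outside the symbol rule were looked up from a list of 45 cofactors, such as the deadenylation adaptors BTG1, TOB1 and TOB2 and RNA-binding proteins that recruit decay enzymes. All 45 are in the files and 22 had enough counts. In shCTL 4 of the 22 were higher in the IP (18.2%) and 5 lower (22.7%), against 22.5 and 30.3% of all genes. The median enrichment on the list was -0.03. TOB2 (751, 2015, 409 and 1830 counts), PELO, which rescues stalled ribosomes (223, 764, 153 and 680), and NOCT, a relative of the CCR4 deadenylases (156, 451, 106 and 423) were higher in both populations, at 0.61, 0.96 and 0.71 in shCTL. The exosome helicase MTREX (-0.92), ELAVL1 (-1.13), which stabilises AU-rich mRNAs, and CELF1 (-1.33), which promotes deadenylation of GU-rich mRNAs, were lower in both.

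On the same list RC3H1 and ETF1 were past 1.5-fold in enrichment change, 2 of 22 (9.09%) against 5.38% of all genes. BTG2 and RC3H1 were past 1.5-fold in lower input, 2 of 22 against 6.43%. RC3H1, counted in both shares, had enough counts only through its IP libraries. The list was not recounted with enough counts asked of the inputs alone. These shares are therefore not read as higher or lower than those of all genes. RC3H1, which recruits CCR4-NOT to stem-loops, had 54, 76, 20 and 82 counts and a change of 1.07 (0.18 to 2.04), and the release factor ETF1 had 93, 106, 67 and 161 counts and a change of 0.62 (0.03 to 1.23). The BTG2 input had 195 counts in shCTL and 71 in shA5, a change of -0.68 (-1.10 to -0.29), and BTG2 also recruits CCR4-NOT. The input change of RC3H1, -0.65 (-1.48 to 0.10), was past 1.5-fold with an interval that includes 0. The interval of the enrichment change lay above 0 for TOB2, ZFP36L2, TENT4A, RC3H1 and ETF1, 5 of 22 (22.7%), against 8.18% of all genes. It lay below 0 for MTREX, ELAVL1 and GSPT1 (13.6%), against 8.06%. RC3H1 is among the 5 above 0, so the same limit holds for that share. For the input change 13.6% lay above 0 and 22.7% below, against 12.9 and 15.6%.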

How the data were processed

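Input and m6A-IP libraries of irradiated shCTL and shA5 HEK293T cells were analysed, 1 per group, grouped by the labels. The values deposited by the authors are raw counts, as whole numbers for each Ensembl transcript. The submitters' processing notes name bcl2fastq 2.0, fastp 0.23.2, HISAT2, SAMtools 1.9, MACS2 and hg38. The methods of the study name StringTie for quantification. Whether it wrote these counts, and the rules on strand and on reads shared between transcripts, are not given in the sources used here. Of 28413 listed transcripts, 98.1% are in Gencode v44, and 89.3% of those with a readable length have the same length there.

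Counts were summed per gene name and divided by the library total. Sequence sharing was counted in stretches of 50 bases. Intervals were exact Clopper-Pearson intervals conditional on the total, and conditional odds-ratio intervals for changes (Python 3.11.15, scipy 1.17.1, pandas 2.3.3). They cover counting error only, since no molecular identifiers are described. A count of 3 equals 0.761 to 2.29 CPM. With 1 library per group no test was run. The calculation was tested on simulated data.

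Members, role groups, lists, thresholds and named genes were chosen with earlier results of these data known. Named genes are the highest and lowest member of each role group by enrichment in shCTL, members past 1.5-fold in a change, and paralog pairs; genes named for their intervals, and the windows around stop codons, were chosen after the values were seen. Alternatives were edgeR 4.0.16 TMM and DESeq2 1.42.0 size factors, pseudocounts of 0.1 and 2 CPM, minimum mean counts of 10 and 200 and none, the transcript with the most counts, members without shared sequence and a 2-fold threshold. A minimum mean of 50 counts over the inputs alone was added after seeing the data. No protein sequences were used here, and the motif sites of CNOT6 are not reported here.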

Additional observations from a re-analysis of the deposited data

Results flagged for a closer look

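In 7 members the m6A enrichment had opposite signs in the populations, and the difference was not tested. How often this occurs over all genes was not counted, so 7 is not read as many or few. Members with no more than 3 counts in any library were left out. LSM4, the only one of the 7 with at least 50 mean counts, was at -0.12 in shCTL and 0.15 in shA5. LSM14A went from -0.69 to 0.51, LSM5 from 0.27 to -1.001, DCP2 from 0.24 to -1.13, EXOSC9 from 0.14 to -0.90, EXOSC1 from 0.68 to -0.19 and UPF3A from -0.064 to 0.055. The interval of the change excluded 0 for LSM14A alone among the 7 (0.23 to 2.27), with 20 counts in its shA5 input, and included 0 for the others. DCP2, EXOSC9 and EXOSC1 had at most 17 counts in any library, and no direction is read from their signs.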

How the results depend on the processing

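The counts and medians over members, the role-group medians, the ALKBH5 input change and the values of the 32 members were recomputed. So were the values of LSM7 and of the paralogs CNOT6L, CNOT7, CNOT8, DCP1B, DIS3L, LSM14A, UPF3A, UPF3B and XRN1. Single values of the other members under 50 mean counts were not. This gave 1030 recomputed values. Of these, 1004 stayed within 1.5 times the main value or within its interval and 26 moved. The sign changed in 14, each a value whose interval included 0. Among them the median enrichment change of the members went from -0.02 to 0.02 with at least 200 mean counts. Correlations and motif shares were not recomputed. Scaling factors and pseudocounts moved no count beyond 1.5 times. With at least 10 mean counts (51 members), 27 members were lower in the IP in shCTL and 30 in shA5, against 35.8 and 37.8% of all genes at that minimum, 3 had a higher and 6 a lower enrichment in shA5 (12.6 and 13% of all genes), and 5 a higher input (9.32%). With at least 200 (16 members), 4 were higher and 7 lower in shCTL (29.1 and 21.7%), 7 lower in shA5 (23.7%), and 0 had a higher input (1.08%). With no minimum (64 members), 34 were lower in shCTL (36.7%), 11 higher and 35 lower in shA5 (24.5 and 37.5%), 8 had a higher and 10 a lower enrichment in shA5 (22.7 and 21.4%), and 8 had a higher and 4 a lower input (15.3 and 19.9%). Calls of change thus became more frequent over all genes too as the minimum fell. At 2-fold, 5 were higher and 8 lower in shCTL (10.1 and 16.9%), and 3 higher and 9 lower in shA5 (12 and 18.4%). With the minimum on the inputs alone (29 members), 5 were higher in shCTL (19.1% of all genes) and 0 had a higher input (2.71%). With its main transcript only, PABPC4 had an enrichment of -2.15 in shCTL, and CNOT3 had an enrichment of -0.67 in shA5, an enrichment change of 0.18 and an input change of 0.0054.

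The shA5 input has the lowest total of the 4 libraries, and for single members the library with the fewest counts differs. Leaving out a replicate was not possible with 1 library per group. No paired analysis was possible because no comparison has more than 1 library on either side.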
